A study of Mus musculus with 35 samples.

Results

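Epiblast stem cells grown in 3D from embryonic stem cells (ESCs) were compared with epiblast stem cells (EpiSCs) grown as a conventional 2D layer, by bulk RNA-seq of 3 libraries of each. The members are the 12510 genes, of 50225 autosomal genes and 54446 genes in all, that had more than 2 TPM (a transcript's share of its library, scaled to a fixed total) in at least 3 of these 6 libraries, and 10987 of them (87.8%) were protein-coding. The 6 libraries belong to a series of mouse pluripotent cultures and embryo stages with 27 RNA-seq libraries in the same table. The ESC-derived 3D EpiSCs were wild-type ESCs embedded in Matrigel, a gel of basement membrane proteins, and fed FGF2, Activin-A, the tankyrase inhibitor XAV939 and Noggin, an antagonist of BMP. As 2D EpiSCs served wild-type cells converted from ESCs with FGF2 and Activin-A. Such cells were kept on fibronectin, without XAV939 or Noggin and with less Activin-A than the 3D culture. Dimension, matrix and medium changed together, so their parts in any difference cannot be told apart. The labels do not say whether the replicates were separate cultures, and p-values then measure only the spread between libraries. That spread, and each SE from the fit, was pooled over 12 in vitro libraries of 4 groups, of which these 6 are part. In bulk RNA, fewer cells of a type and less of a transcript per cell cannot be told apart.

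EpiSCs stand for the primed state of pluripotency, that of the epiblast shortly before and during gastrulation. In the embryo, Nodal, Wnt and BMP signals lead epiblast cells into the primitive streak, from which mesoderm and definitive endoderm form. The epiblast itself is an epithelium that rests on a basement membrane and encloses a lumen, so matrix, integrin, junction and polarity genes belong to the state as much as the pluripotency factors do. Activin-A stands in for Nodal in culture, XAV939 stabilises Axin and so lowers Wnt signaling, and Noggin binds BMP ligands.

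Replicate 3 of the ESC-derived 3D EpiSCs stood apart from the other replicates. Its median absolute difference on the log2(TPM + 1) scale was 0.287 from replicate 1 and 0.266 from replicate 2, whereas replicates 1 and 2 differed by 0.0673. Replicates 1 and 2 of the 2D EpiSCs were likewise close (0.0708), and replicate 3 lay 0.140 and 0.134 from them. TPM keeps no read counts, so whether such close pairs differ by more than sampling noise could not be tested, and results with each close pair averaged are given where they matter. Across the genes tested, replicate 3 was also nearer to the mean of the 2D EpiSCs, at a Euclidean distance of 60.7 on the log2 scale against 85.8 and 83.0 for replicates 1 and 2.

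Both cultures carried the epiblast markers that define the labelled cells. The summed level of 9 epiblast genes, among them Pou5f1, Nanog, Otx2 and Fgf5, was 4121 to 4326 TPM in the 3D libraries and 3646 to 3977 TPM in the 2D libraries, and each of the 9 passed 2 TPM in at least 3 libraries. Of the markers of other states and cell types, those of the primitive streak (8 genes) summed to 131.5 to 183.8 TPM in 3D and 186.9 to 201.8 TPM in 2D. The 9 fibroblast markers summed to 13.7 to 17.4 TPM in 3D and 22.3 to 23.9 TPM in 2D, and the 10 visceral and parietal endoderm markers to 1.56 to 3.18 and 7.29 to 11.8 TPM. The 6 markers of 2-cell-like cells were at 0 in each 3D library and at 0.98 TPM or less in 2D. The 7 markers of definitive endoderm summed to 37.97, 38.05 and 169.6 TPM in 3D replicates 1, 2 and 3 and to between 455 and 572 TPM in the 2D libraries. Transcripts encoded by mitochondrial DNA took 3.78% to 5.42% of TPM in 3D and 3.57% to 6.80% in 2D, and cytosolic ribosomal protein genes took 14.4% to 16.3% and 12.8% to 13.4%. Their part in the differences below was not tested.

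Far more genes were lower than higher in the ESC-derived 3D EpiSCs. Calls required a fold change beyond 1 on the log2 scale in either direction together with a Benjamini-Hochberg adjusted p under 0.05 (limma on log2(TPM + 1), a scale that understates the change of low genes). By this rule 1096 genes (8.76%) were called lower and 86 (0.687%) higher, or 9.45% in all, so that 92.7% of calls were lower. All 3D libraries lay below all 2D libraries in 4975 genes (39.8%) and above them in 1909 (15.3%), and this held for 1082 of the lower and 81 of the higher calls. Over all genes tested the median was -0.18, and after TPM were rescaled by median-of-ratios factors it was 0.03. With rescaled TPM 759 genes (6.07%) were called lower and 194 (1.55%) higher, or 79.6% lower, and all 86 higher calls and 759 of the 1096 lower calls were kept. Of the lower calls 95.7% were protein-coding, against 74.4% of the higher calls, which included pseudogenes and small RNAs. The genes called lower together took 1.15% ± 0.275 of TPM in 3D and 3.46% ± 0.107 in 2D, and those called higher 1.05% ± 0.146 and 0.408% ± 0.0316 (SD, n = 3 each). Leaving out 3D replicate 3 raised the calls to 1535 lower and 152 higher, and 1067 of the lower and 74 of the higher calls were among them. Averaging each close pair of replicates left 812 lower and 50 higher.

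**Figure D1:**
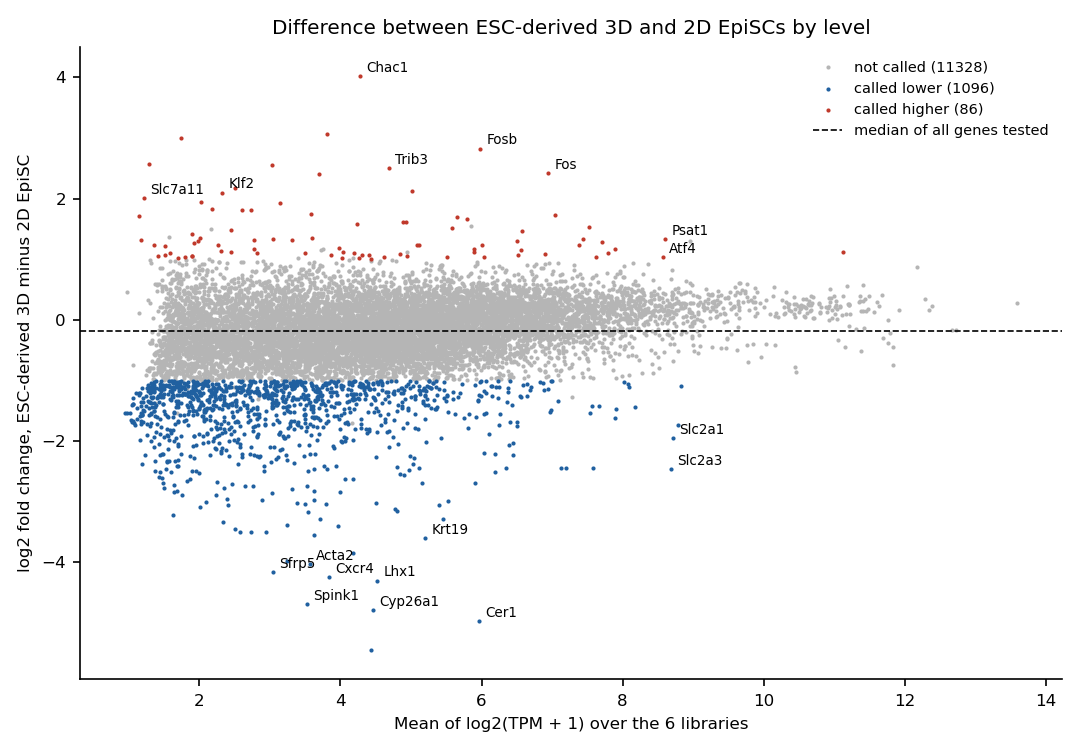
Each point is 1 of the 12510 genes tested, with the mean log2(TPM + 1) over the 6 libraries on the x axis and the log2 fold change, 3D minus 2D, on the y axis. The 1096 blue genes were called lower and the 86 red genes higher, and the dashed line marks the median of all genes at -0.18; Chac1 at 4.03 and Cer1 at -4.97 are among the labelled genes far from it.

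The single genes with the largest fold changes came from several functions. On the lower side Pga5, a pepsinogen, had 0, 0 and 34.1 TPM in 3D and 216, 215.8 and 61.4 TPM in 2D, and Spink1, a secreted protease inhibitor, had 0, 0.28 and 8.19 TPM in 3D and 73.9, 80.4 and 31.8 TPM in 2D. Coch, an extracellular matrix protein, had 0.94, 1.21 and 2.16 TPM in 3D and 48.2, 48.8 and 20.3 TPM in 2D (log2 fold change -3.97 ± 0.28, SE, adjusted p = 5.66e-06). Cd55, a membrane inhibitor of complement, had 1.497, 1.675 and 6.18 TPM in 3D and 50.8, 52.3 and 26.4 TPM in 2D. In all of these the 3D libraries stayed below the 2D libraries, which was a condition for naming genes by fold change. On the higher side, besides stress genes described below, Exoc3l had 12.8, 12.7 and 8.43 TPM in 3D and 1.92, 1.46 and 1.67 TPM in 2D (log2 fold change 2.18 ± 0.22, SE, adjusted p = 4.1e-05). Mef2b, a MADS-box transcription factor, had a mean of 34.1 TPM in 3D, with 63.9 TPM in replicate 3, and of 4.64 TPM in 2D. Rn7sk, the RNA that holds the elongation factor P-TEFb inactive, had 78.9, 113.4 and 32.6 TPM in 3D and 24.2, 12.5 and 9.83 TPM in 2D, but it carries no poly-A tail and the libraries were made by poly-A capture. The pseudogene Gm7289 was listed at 0 in all 2D libraries and had 3.11, 5.69 and 6.69 TPM in 3D. Emb, a partner of monocarboxylate transporters, had 303.9, 303.8 and 327.5 TPM in 3D and 734.2, 728.0 and 540.7 TPM in 2D, and was among the genes with the largest difference in mean TPM.

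In all, 41 gene lists were followed, and 39 of them had members that passed the filter on low values. The list medians ran from 0.95 for genes of the integrated stress response to -2.91 for genes of definitive and anterior endoderm, beside -0.18 for all genes. A fold change just below 0 turned positive with rescaled TPM, as the medians of cell cycle genes (-0.02 to 0.20) and of cholesterol and fatty acid genes (-0.01 to 0.21) and the value of Foxa2 (-0.14 to 0.08) did. Because the filter lets a gene pass through 1 group alone, 374 genes tested passed only through the 2D libraries and 50 only through the 3D libraries, and 249 of the lower and 18 of the higher calls were among these. In the neuroectoderm, BMP component, FGF and ERK, Notch, immediate early, YAP and actin lists 1 member each passed through the 2D libraries alone. Counts of calls in the lists below stand beside 8.76% of all genes called lower and 0.687% called higher.

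**Figure D2:**
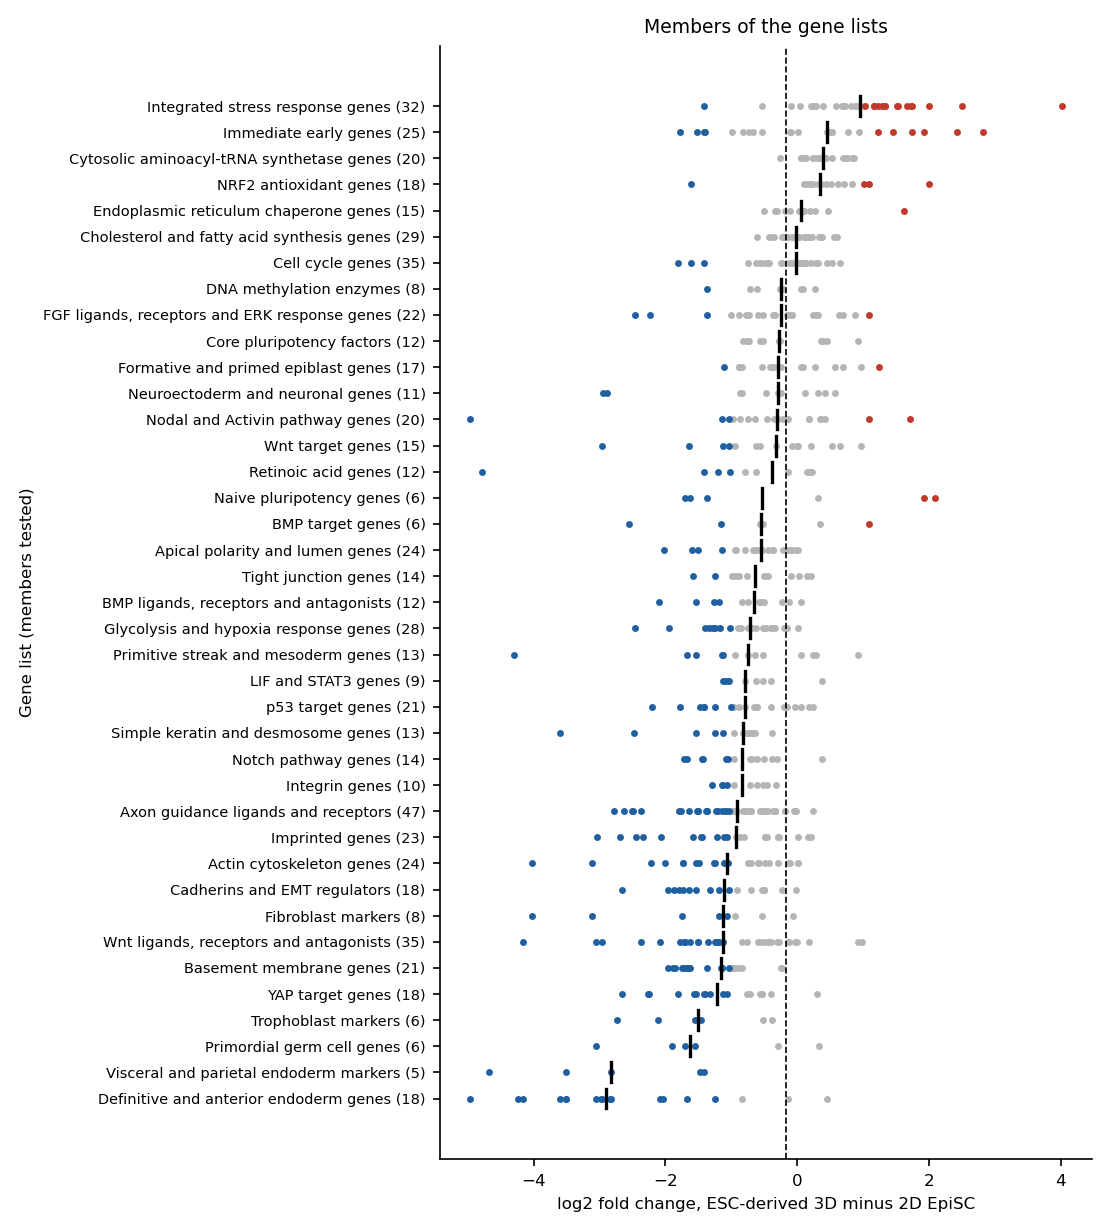
Each row is a gene list with the number of members tested in brackets, each point a member placed at its log2 fold change (3D minus 2D), and the black bar the median of the list. Red and blue points were called higher and lower, and the dashed line is the median of all genes tested at -0.18; 15 of 18 definitive and anterior endoderm genes are blue and 15 of 32 integrated stress response genes are red.

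Genes of the integrated stress response had the highest median of the lists. This pathway slows general translation while the transcription factor ATF4 is made, and ATF4 then raises genes of amino acid supply, the folate cycle and glutathione turnover. Of the 32 members that passed the filter, 15 were called higher (0.687% of all genes were) and 1, Ddit4, lower. The median log2 fold change was 0.95, and 1.17 with rescaled TPM. The count ranged from 11 to 18 over the other settings, with 11 when 3D replicate 3, 2D replicate 1 or 2D replicate 2 was left out.

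Chac1, which breaks down glutathione, had 70.7, 71.0 and 93.1 TPM in the 3D libraries and 3.40, 3.03 and 5.33 TPM in the 2D libraries. All 3D libraries lay far above all 2D libraries, and the log2 fold change was 4.03 ± 0.51 (SE, adjusted p = 0.000176, limma), the largest of any gene called higher. Trib3, a pseudokinase that feeds back on ATF4, had 56.1, 51.4 and 76.8 TPM in 3D and 8.88, 9.68 and 11.1 TPM in 2D. Its log2 fold change was 2.50 ± 0.46 (SE, adjusted p = 0.00166). Atf4 itself had 529.7, 532.4 and 567.2 TPM in 3D and 248.0, 249.5 and 300.8 TPM in 2D, a log2 fold change of 1.03 ± 0.16 (SE, adjusted p = 0.000578). Without 3D replicate 3 the fold changes of Chac1, Trib3 and Atf4 were 3.90, 2.34 and 1.00.

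The remaining members called higher fell into a few metabolic steps. Slc7a11, the cystine and glutamate antiporter, had 3.56, 3.10 and 4.36 TPM in 3D and 0.20, 0.18 and 0.09 TPM in 2D. Of the 32 members it is the 1 that passed the filter through the 3D libraries alone, so it could only come out higher. The paired chains of a large neutral amino acid transporter, Slc7a5 and Slc3a2, rose by 1.53 and 1.17 on the log2 scale. Serine synthesis was represented by Psat1 (1.34) and Psph (1.52), and the mitochondrial folate cycle by Mthfd2 (1.73) and Shmt2 (1.33). Psat1 had 519.0, 515.8 and 876.5 TPM in 3D and 234.0, 235.5 and 260.6 TPM in 2D, the largest difference in mean TPM among protein-coding genes called higher. Asns, asparagine synthetase, had 249.5, 245.5 and 569.1 TPM in 3D and 123.8, 127.4 and 148.7 TPM in 2D. Its call rested on the high replicate: without it the log2 fold change was 0.89 (adjusted p = 0.0972). Replicate 3 was the highest 3D library for 14 of the 15 members called higher, and for 37 of all 86 genes called higher. The exception on the lower side, Ddit4, an inhibitor of mTORC1 that also responds to hypoxia, had 77.6, 76.0 and 318.6 TPM in 3D and 323.1, 327.5 and 347.3 TPM in 2D, so that replicate 3 was close to the 2D level. The call of Ddit4 was lost in most other settings (adjusted p = 0.00125 to 0.281).

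None of the 20 cytosolic aminoacyl-tRNA synthetases, many of them ATF4 targets, was called, although 19 had a positive fold change and the median was 0.39. Of 15 chaperone and quality control genes of the endoplasmic reticulum, 1 was called: Herpud1, which takes part in protein degradation from that compartment, had 55.5, 55.5 and 46.5 TPM in 3D and 16.6, 14.9 and 17.6 TPM in 2D. The chaperone Hspa5 (BiP) had a log2 fold change of 0.27. Among 18 antioxidant genes of the NRF2 response 3 were called higher, beside 0.687% of all genes, Slc7a11 as above, Srxn1 (1.10) and Nqo1 (1.02), and 1 lower, Gstm1 (-1.61). Slc7a11 was again the member that passed the filter through the 3D libraries alone. In Nqo1 the 3D libraries had 33.5, 30.5 and 10.3 TPM and the 2D libraries 10.5, 10.6 and 10.0 TPM, so 3D replicate 3 overlapped with the 2D EpiSCs.

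The promoters of the ATF4 pathway genes are shown because several hold the sequence that ATF4 binds together with C/EBP proteins. Promoters of 300 bases, 250 before and 50 after the start of transcription, were taken from RefSeq (GRCm38.p6) for 14 of the 15 members called higher. The letters TGATGNAA were searched for on both strands and occurred in 6 of these 14 genes, and in 3.97% of all 32851 promoters in that table. A gene was counted if any promoter listed for it held a match, whereas the share is of single promoters, so the units differ. The matches are in capitals below, on the strand of the gene, so that a match on the other strand appears as its reverse complement, and each is given with up to 40 bases on either side.
Chac1, chr2:119351009-119351096, plus strand: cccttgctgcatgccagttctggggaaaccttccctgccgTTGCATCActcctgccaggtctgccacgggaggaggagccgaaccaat
Trib3, chr2:152344011-152344086, minus strand: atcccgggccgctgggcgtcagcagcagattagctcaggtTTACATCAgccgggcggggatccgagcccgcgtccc
Slc7a11, chr3:50443613-50443719, minus strand: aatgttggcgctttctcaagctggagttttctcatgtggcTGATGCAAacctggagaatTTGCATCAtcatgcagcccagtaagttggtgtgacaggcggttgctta
Atf3, chr1:191183396-191183483, minus strand: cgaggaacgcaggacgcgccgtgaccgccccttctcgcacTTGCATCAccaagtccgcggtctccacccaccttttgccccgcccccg
Pck2, chr14:55540123-55540210, plus strand: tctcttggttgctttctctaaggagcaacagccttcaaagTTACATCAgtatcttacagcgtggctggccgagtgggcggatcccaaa
Asns, chr6:7693185-7693272, minus strand: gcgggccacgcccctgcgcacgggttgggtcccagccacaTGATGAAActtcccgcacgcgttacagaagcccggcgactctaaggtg
Slc7a11 held 2 matches, one on each strand. The match began 193 bases before the start of transcription in Chac1, 110 in Atf3, 103 in Pck2, 66 and 47 in Slc7a11 and 23 in Asns, and at base 15 of the transcript in Trib3. A match is a description of the letters and not evidence of binding, and the 8 other genes searched may hold the element outside this window. The cAMP response element TGACGTCA, the AP-1 site TGANTCA and the CArG box were found in none of the 14, and in 1.79%, 7.81% and 1.63% of all promoters. In the promoters of immediate early genes, TGACGTCA occurred in Dusp1, called higher, and in Btg2, called lower.

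Immediate early genes, which respond to growth factors and stress within minutes, split in both directions. Of 25 tested, 6 were called higher and 4 lower (0.687% and 8.76% of all genes were), and the median log2 fold change was 0.45. Fos, a subunit of the AP-1 transcription factor, had 267.0, 270.0 and 319.4 TPM in 3D and 64.9, 58.6 and 37.4 TPM in 2D, and rose by 2.42 ± 0.48 (log2, SE, adjusted p = 0.00284). Fosb, its close relative, had 151.4, 160.3 and 193.4 TPM in 3D and 28.2, 26.9 and 15.5 TPM in 2D. In both genes the 3 libraries of one culture lay well apart from those of the other. Atf3 (1.75), Klf4 (1.92), Dusp1 (1.23) and Egr1 (1.46) were the other members called higher, and Egr1 lost its call in some settings (adjusted p = 0.00709 to 0.154). Jun and Junb, the partners of Fos, had fold changes of 0.47 and 0.45 and were not called. On the lower side, Btg2, an antiproliferative gene, had 27.6, 27.8 and 32.0 TPM in 3D and 103.8, 107.5 and 96.1 TPM in 2D. The others were Ier3 (-1.51), Fosl2 (-1.41) and Cyr61 (-1.42), of which Cyr61 is also a target of YAP. With each close pair of replicates averaged 2 of the 4 lower calls were left, as Ier3 (adjusted p = 0.261) and Fosl2 (0.0732) lost theirs, and Ier3 lost its call in most other settings too.

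**Figure D3:**
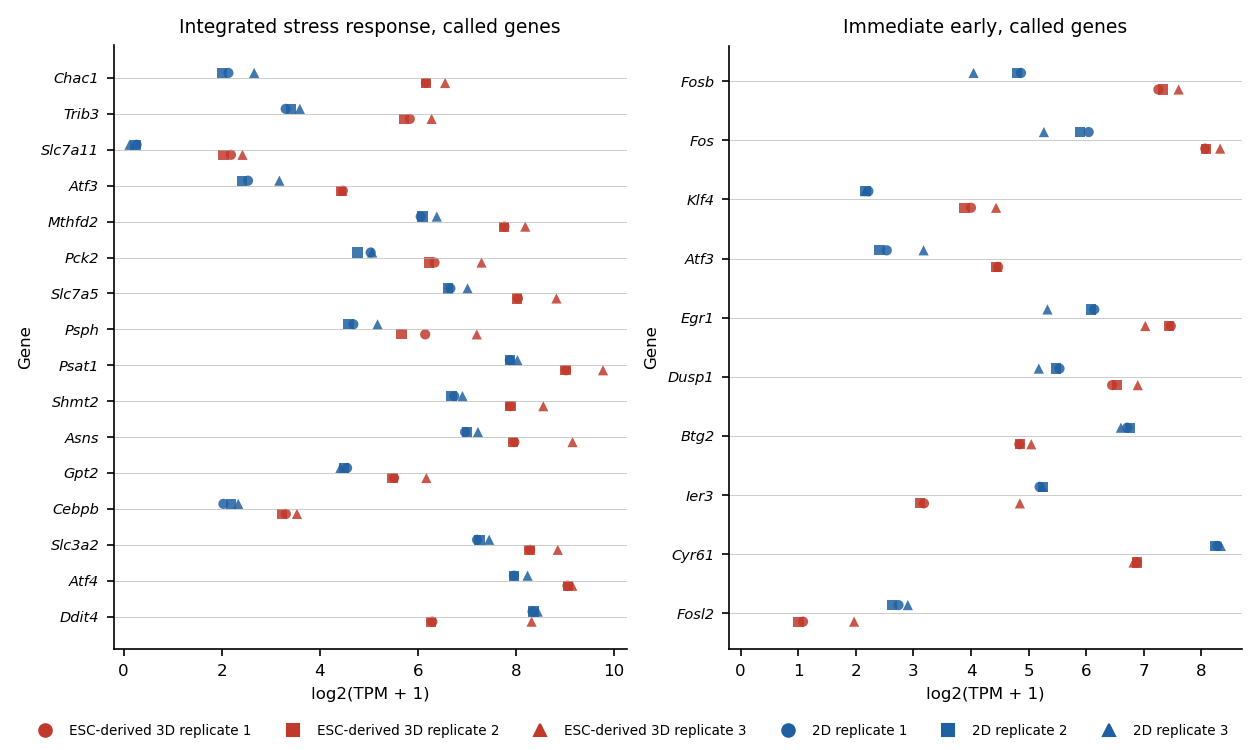
Called genes of the integrated stress response (left) and of the immediate early list (right), with log2(TPM + 1) of each library on the x axis. Red is ESC-derived 3D, blue is 2D, and the marker shape gives the replicate. In Chac1 the 3D libraries had 70.7 to 93.1 TPM against 3.03 to 5.33 TPM in 2D, and in Ddit4 the red triangle (replicate 3) sits at the 2D level.

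Endoderm genes had the lowest median of the lists. Of 18 definitive and anterior endoderm genes tested, 15 were called lower (8.76% of all genes were), with a median log2 fold change of -2.91, and 1 of the 18 passed the filter through the 2D libraries alone. Averaging each close pair of replicates left 12 of these calls, and leaving out 3D replicate 3 left the count at 15.

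Cer1, a secreted antagonist of Nodal, BMP and Wnt made by anterior endoderm, had 2.44, 2.36 and 119.1 TPM in the 3D libraries and 369.9, 369.6 and 309.1 TPM in the 2D libraries. All 3D libraries were below all 2D libraries, but replicate 3 lay far above the other 3D replicates. The log2 fold change was -4.97 ± 1.10 (SE, adjusted p = 0.00482), and -6.68 without replicate 3. With each close pair of replicates averaged it was -4.07 and no longer called (adjusted p = 0.0752). Sox17, a transcription factor that specifies endoderm, had 0.26, 0.23 and 6.73 TPM in 3D and 26.1, 24.3 and 24.7 TPM in 2D, a log2 fold change of -3.50 ± 0.58 (SE, adjusted p = 0.00094). Cxcr4, a chemokine receptor used to sort endoderm, had 0.58, 0.75 and 11.9 TPM in 3D and 67.7, 65.1 and 52.6 TPM in 2D. Gata6, another endoderm factor, had 0.06, 0.12 and 5.42 TPM in 3D and 23.55, 24.02 and 17.08 TPM in 2D. The same order, low in 3D replicates 1 and 2, intermediate in 3D replicate 3 and high in 2D, held for most of the list: replicate 3 was more than 2-fold above both other 3D replicates in 14 of the 15 genes, and in 307 of all 1096 genes called lower. Gata4 (-2.83), Hhex (-2.97), Prdm1 (-3.05), Dkk1 (-2.97) and Foxa1 (-2.04) were among the others called lower. Foxa2, a node and endoderm factor, was not called, with 27.5 TPM in 3D and 29.3 TPM in 2D on average (log2 fold change -0.14), nor was Otx2, which anterior endoderm shares with the epiblast (-0.83).

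Of 13 genes of the primitive streak and mesoderm tested, 5 were called lower, and 2 of the 13 passed the filter through the 2D libraries alone. Lhx1, a transcription factor of the anterior streak, had 1.64, 1.21 and 22.6 TPM in 3D and 111.0, 103.6 and 89.1 TPM in 2D (log2 fold change -4.30 ± 0.67, SE, adjusted p = 0.000665). Gsc, an organizer gene, had 6.37, 5.95 and 16.1 TPM in 3D and 27.0, 28.2 and 34.0 TPM in 2D. The general streak genes T (Brachyury), Eomes and Mixl1 had log2 fold changes of -0.95, -0.52 and -0.65 and were not called. T passed the threshold when 3D replicate 3 was left out (-1.20, adjusted p = 0.0197) or when 2D replicate 3 was left out (-1.14, adjusted p = 0.0465). Markers of later mesoderm, among them Mesp1, Msgn1 and Tbx6, did not pass the filter. Of 19 visceral and parietal endoderm markers 5 passed the filter, 2 of them through the 2D libraries alone, and those 5 were called lower, Gata4 and Gata6 of the endoderm list among them, but Ttr and Afp, which define visceral endoderm, were below 0.1 TPM on average in both cultures.

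Other lineages were at low levels in both. Hesx1 and Irx3 were the 2 genes called lower of 11 neuroectoderm and neuronal genes tested, beside 8.76% of all genes. Their means were 1.06 and 0.97 TPM in 3D and 12.4 and 13.9 TPM in 2D. Sox1 and Pax6, the early neural plate factors, stayed below 1 TPM on average in either culture. Of 6 trophoblast markers tested 4 were called lower, led by Gata3 (0.08, 0.06 and 0.55 TPM in 3D and 10.3, 9.79 and 3.26 TPM in 2D), and 3 of the 6 passed the filter through the 2D libraries alone.

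Wnt ligands, receptors and secreted antagonists were often lower. XAV939 was present in the 3D medium only. Of 35 ligands, receptors, antagonists and transducers tested, 18 were called lower and none higher (median -1.12), and with rescaled TPM 17 were called lower and 2 higher. Through the 2D libraries alone 3 of the 35 passed the filter. Secreted Wnt antagonists headed the group: Sfrp5 had 0.21, 0.19 and 4.08 TPM in 3D and 47.3, 48.2 and 16.8 TPM in 2D, and Sfrp1 had 10.4, 10.5 and 23.2 TPM in 3D and 141.1, 137.3 and 91.3 TPM in 2D. Their log2 fold changes were -4.17 ± 0.53 and -3.06 ± 0.33 (SE, adjusted p = 0.000176 and 7.23e-05). The receptor Fzd5 had 9.67, 8.98 and 26.3 TPM in 3D and 81.8, 77.0 and 62.1 TPM in 2D. Sfrp5 and the further antagonists Dkk1 and Frzb stand in the endoderm list as well.

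Among 15 Wnt target genes, 4 were called lower and none higher, with a median of -0.33. Through the 2D libraries alone 2 of the 15 passed the filter, Sp5 among them. Lgr5, a receptor for R-spondins, had 0.74, 0.74 and 3.48 TPM in 3D and 6.94, 6.52 and 5.85 TPM in 2D. Sp5, a direct target that represses others, was low in both cultures, at 0.38, 0.64 and 1.42 TPM in 3D and 2.76, 2.69 and 3.10 TPM in 2D. Axin2, the most widely used readout, had a mean of 8.15 ± 1.01 TPM in 3D and 6.90 ± 0.354 TPM in 2D (SD, n = 3 each), a log2 fold change of 0.21 ± 0.20 (SE, adjusted p = 0.426). Lef1 had a log2 fold change of 0.98 and was not called. With rescaled TPM 2 of the 4 calls were left, Dkk1 and Lgr5, and 2 were left with each close pair of replicates averaged. Dkk1 had 0.16, 0.12 and 13.4 TPM in 3D and 20.5, 20.35 and 18.5 TPM in 2D. Its adjusted p reached 0.127 over the settings (limma), so its call was not kept in all of them.

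BMP targets moved in both directions. Id1, an inhibitor of differentiation induced by BMP through SMAD1, had 10.8, 8.17 and 14.3 TPM in 3D and 84.8, 89.5 and 41.8 TPM in 2D. It fell by 2.55 ± 0.31 on the log2 scale (SE, adjusted p = 0.000133). Id3 had 26.5, 27.2 and 17.9 TPM in 3D and 62.07, 62.07 and 40.03 TPM in 2D, and its call was lost with rescaled TPM (-0.94). Smad7, an inhibitory SMAD that Activin and BMP both induce, was higher (1.09), and Id2 (0.35) and Smad6 (-0.52) were not called. Of 12 BMP ligands, receptors and antagonists 4 were called lower, beside 8.76% of all genes. They were the ligands Bmp2, Bmp4 and Bmp7, and Nog itself, with 0, 0 and 0.46 TPM in 3D and 2.20, 2.58 and 2.09 TPM in 2D. Bmp2, Bmp4 and Bmp7 were not called when each close pair of replicates was averaged (adjusted p = 0.0825, 0.0794 and 0.0748).

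Nodal and Activin pathway genes had calls in both directions. Nodal, the ligand that Activin-A replaces, had a log2 fold change of 0.17 ± 0.16 (SE, adjusted p = 0.398), and Lefty1, a feedback inhibitor, of -0.21 ± 0.21, which became 0.01 with rescaled TPM. Of 20 genes tested, Cer1, Lefty2 (-1.14) and the receptor Acvr2b (-1.03) were called lower, and Smad7 and the ligand gene Gdf1 higher. Gdf1 passed the filter through the 3D libraries alone, so it could only come out higher. With rescaled TPM Cer1 alone was left of the lower calls. In the FGF and ERK list, 3 of 22 were called lower and 1 higher, beside 8.76% and 0.687% of all genes. Dusp6, an ERK phosphatase that ERK activity induces, had 150.2, 152.2 and 225.1 TPM in 3D and 81.5, 76.6 and 83.9 TPM in 2D (log2 fold change 1.09 ± 0.17, SE, adjusted p = 0.000764), but 0.90 without 3D replicate 3, under the fold change threshold. Fgfr2 fell, with 5.34, 6.00 and 2.30 TPM in 3D and 28.8, 30.4 and 25.1 TPM in 2D. Cyp26a1, which degrades retinoic acid, had 1.08, 1.15 and 15.6 TPM in 3D and 138.7, 134.3 and 82.5 TPM in 2D, a log2 fold change of -4.79 ± 0.62 (SE, adjusted p = 0.000201), and 4 of 12 retinoic acid genes were called lower. In the Notch list 6 of 14 were called lower, led by Notch1 (5.07, 5.13 and 6.43 TPM in 3D, 20.4, 18.0 and 23.4 TPM in 2D). The 4 calls among 9 LIF and STAT3 genes, with log2 fold changes of -1.04 to -1.13, were all lost with rescaled TPM.

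Genes of the basement membrane, a sheet of laminin, collagen IV, nidogen and perlecan that Matrigel supplies from outside, were lower in 3D. Of 21 tested, 14 were called lower and none higher, all 21 fold changes were negative, and the median was -1.16. With rescaled TPM 10 were called. Through the 2D libraries alone 2 of the 21 passed the filter, Lama1 among them. Col4a1 had 10.8, 9.96 and 17.5 TPM in 3D and 54.0, 51.2 and 38.1 TPM in 2D. Lama1, the laminin chain of the early embryo, had 0.35, 0.41 and 0.61 TPM in 3D and 4.75, 3.99 and 2.78 TPM in 2D. Sparc, a collagen-binding matrix protein, had 144.9, 146.7 and 112.6 TPM in 3D and 410.6, 413.4 and 420.0 TPM in 2D. Nid1 (nidogen, -1.96), Hspg2 (perlecan, -1.64) and Agrn (agrin, -1.68) fell by similar steps, and no 3D library reached a 2D library in these genes. Lamb1 and Lama5, chains of the main epiblast laminins, had log2 fold changes of -0.97 and -0.96 and fell short of the threshold.

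**Figure D4:**
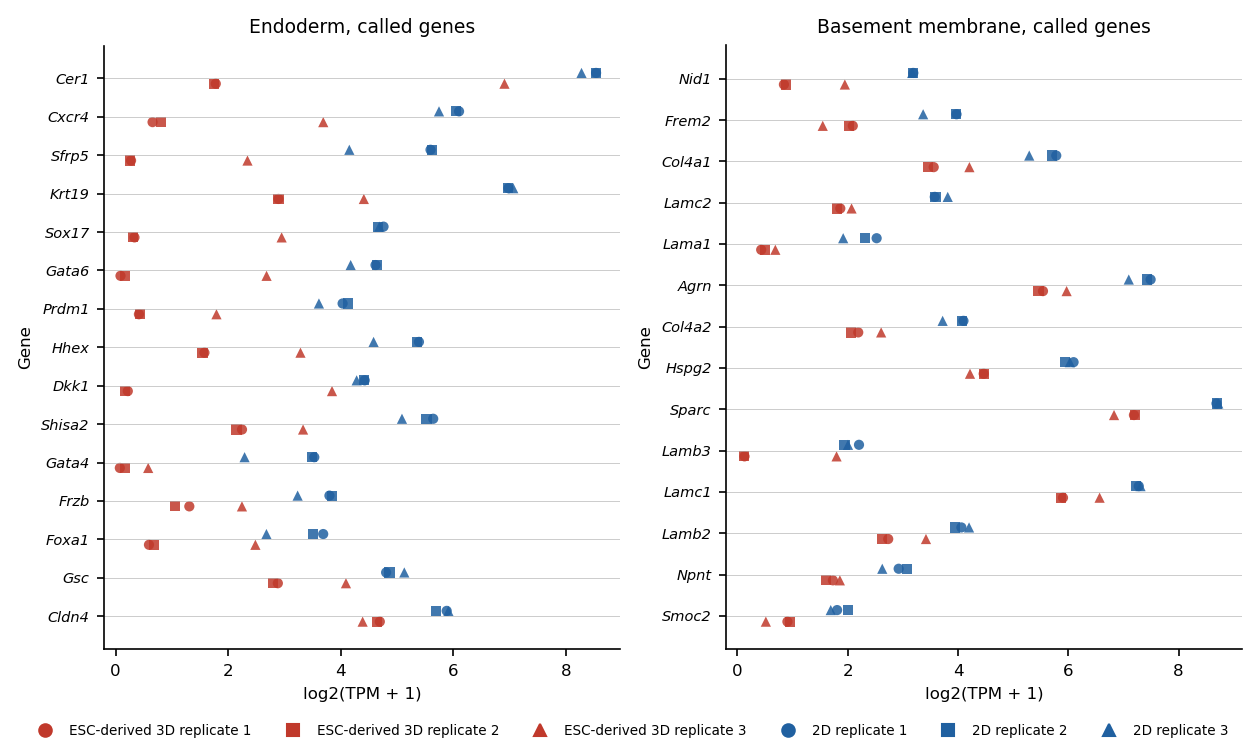
Called genes of the endoderm list (left) and the basement membrane list (right), with log2(TPM + 1) of each library on the x axis. Red is ESC-derived 3D, blue is 2D, and the marker shape gives the replicate. Replicate 3 of the 3D culture (red triangles) lies between the groups for most endoderm genes, with 119.1 TPM of Cer1 against 2.44 and 2.36 TPM in the other 3D libraries, and was more than 2-fold above both in 2 of the 14 basement membrane genes.

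Of 10 integrin genes, the receptors for these matrix proteins, 4 were called lower, 4 of the 10 having passed the filter through the 2D libraries alone. Itga5, a fibronectin receptor subunit, had 13.2, 12.3 and 14.4 TPM in 3D and 35.6, 33.3 and 32.6 TPM in 2D. Itgb1, the common beta subunit, was not called, at 186 ± 9.37 TPM in 3D and 257 ± 14.1 TPM in 2D (SD, n = 3, log2 fold change -0.46). Among 24 actin cytoskeleton genes, many of them targets of SRF, 13 were called lower. Acta2, smooth muscle actin, had 1.08, 1.64 and 3.63 TPM in 3D and 62.0, 62.9 and 26.2 TPM in 2D (log2 fold change -4.02 ± 0.35, SE, adjusted p = 1.87e-05). Tpm1, a tropomyosin, had 257.6, 257.3 and 211.7 TPM in 3D and 730.1, 743.5 and 946.9 TPM in 2D. The general actins Actb and Actg1 had log2 fold changes of 0.02 and -0.14. Tagln, an actin-binding protein, was one of the genes in which 3D replicate 3 was lowest, at 1.96 TPM beside 16.6 and 14.2 TPM, with 69.7, 68.2 and 104.3 TPM in 2D. Acta2, Tagln and Col1a1 also stand in the fibroblast list, 5 of whose 8 members tested were called lower. Through the 2D libraries alone 2 of those 8 passed the filter.

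Target genes of YAP, a coactivator that responds to cell spreading and stiffness, had 11 lower calls among 18 tested and a median of -1.22. Lats2, a kinase that restrains YAP, had 2.05, 1.82 and 3.20 TPM in 3D and 14.6, 13.2 and 16.8 TPM in 2D, a log2 fold change of -2.25 ± 0.17 (SE, adjusted p = 8.5e-06). Cyr61 had 116.8, 116.7 and 112.0 TPM in 3D and 308.9, 299.5 and 322.3 TPM in 2D. Amotl2, Ptpn14 and Nuak2 were also called lower, whereas Ctgf, often read beside Cyr61, was not (-0.53 ± 0.21, SE, adjusted p = 0.0648). Thbs1, a matrix glycoprotein, had 3.78 ± 0.337 TPM in 3D and 68.0 ± 9.86 TPM in 2D (SD, n = 3) and fell by 3.85 on the log2 scale. With rescaled TPM 9 of the YAP targets were called.

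Keratins and desmosomal genes showed 5 lower calls of 13 tested. Krt19 had 6.43, 6.44 and 20.3 TPM in 3D and 125.1, 124.2 and 132.8 TPM in 2D, and Krt8 had 95.6, 101.1 and 131.3 TPM in 3D and 338.9, 323.0 and 285.7 TPM in 2D. The log2 fold changes were -3.60 ± 0.39 and -1.53 ± 0.16 (SE, adjusted p = 6.72e-05 and 4.94e-05). Krt18, the partner of Krt8, had a log2 fold change of -0.96 and was called only when 3D or 2D replicate 3 was left out. Dsp, desmoplakin, had 9.65, 9.69 and 19.8 TPM in 3D and 71.2, 74.5 and 75.1 TPM in 2D.

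Of 24 apical polarity and lumen genes 4 were called lower, beside 8.76% of all genes. Podxl, a sialomucin that lines the lumen, had 33.3, 33.7 and 67.4 TPM in 3D and 187.8, 186.7 and 153.3 TPM in 2D (log2 fold change -2.02 ± 0.23, SE, adjusted p = 0.000104). Pard6g, a scaffold of the PAR complex, had 8.29, 7.74 and 7.81 TPM in 3D and 29.1, 27.5 and 21.8 TPM in 2D. The kinase of that complex, Prkci, had a log2 fold change of -0.37, and Pard3 and Ezr had -0.44 and -0.08. Of 14 tight junction genes 2 were called lower, Cldn3 and Cldn4, beside 8.76% of all genes. Tjp1 (ZO-1) was called only without 3D replicate 3 (-0.92 with it, -1.22 without). Cdh1, E-cadherin, was not called, at 369 ± 35.2 TPM in 3D and 523 ± 21.4 TPM in 2D (SD, n = 3, log2 fold change -0.51), and Epcam had a log2 fold change of -0.02. Of 18 cadherins and regulators of the epithelial to mesenchymal transition 10 were called lower: Cdh2, N-cadherin, had 7.15, 7.36 and 18.0 TPM in 3D and 41.2, 38.1 and 36.9 TPM in 2D, and Fn1, Vim, Snai1, Zeb2 and Twist1 were among the others. Through the 2D libraries alone 2 of the 18 passed the filter, Snai1 among them. Of 47 axon guidance ligands and receptors, a family that also patterns cell contacts in the embryo, 20 were called lower and none higher, led by Sema6d (-2.78), Sema3e (-2.63), Nrp1 (-2.50), Slit1 (-2.50) and Rgma (-2.38). Through the 2D libraries alone 6 of the 47 passed the filter, Nrp1, Slit1 and Rgma among them.

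The glucose transporters Slc2a3 and Slc2a1 had the largest differences in mean TPM of the genes called lower. Slc2a3 (GLUT3) had 130.4, 150.8 and 271.7 TPM in 3D and 960.7, 917.1 and 1034 TPM in 2D, and Slc2a1 (GLUT1) had 170.0, 173.3 and 325.7 TPM in 3D and 863.7, 838.5 and 774.9 TPM in 2D. They fell by 2.46 ± 0.27 and 1.95 ± 0.29 on the log2 scale (SE, adjusted p = 7.25e-05 and 0.000503). In total 8 of 28 glycolysis and hypoxia response genes were called lower and none higher, with a median of -0.72. Enzymes of the main glycolytic path such as Gapdh, Pkm and Aldoa had log2 fold changes of -0.16, -0.39 and -0.34 and were not called. Replicate 3 was the highest 3D library in all 8 called genes and more than 2-fold above both others in 6 of them. Of all 1096 genes called lower, 862 had replicate 3 highest and 307 had it more than 2-fold above both. In Pdk1, which keeps pyruvate out of the mitochondria, the 3D libraries had 25.0, 24.6 and 86.9 TPM and the 2D libraries 95.8, 98.3 and 96.4 TPM. The count of calls was 12 without 3D replicate 3, 3 without 3D replicate 1 or 2, 4, 5 and 6 without 2D replicates 1, 2 and 3, and 2 with each close pair averaged. None of 29 genes of cholesterol and fatty acid synthesis was called, and their median was -0.01 (0.21 with rescaled TPM).

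Targets of p53 were called lower in 7 of 21 cases, beside 8.76% of all genes. Trp53inp1 had 29.6, 29.2 and 29.7 TPM in 3D and 128.7, 131.2 and 160.4 TPM in 2D, a log2 fold change of -2.20 ± 0.14 (SE, adjusted p = 3.03e-06). Cdkn1a (p21), which arrests the cell cycle, had 60.5, 60.3 and 38.5 TPM in 3D and 141.4, 136.1 and 141.6 TPM in 2D. Mdm2, the feedback inhibitor of p53, was called at -1.001 and lay at -0.78 with rescaled TPM. Cdkn1a, Cdkn2a and Cdkn2b, all inhibitors of cyclin-dependent kinases, were the 3 genes called lower among 35 cell cycle genes, a share near that of all genes (8.76%), while Mki67 and Ccnb1 had log2 fold changes of -0.45 and 0.05.

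Imprinted genes, expressed from a single parental allele, had 11 lower calls among 23 tested and none higher. Through the 2D libraries alone 2 of the 23 passed the filter. Igf2, a growth factor gene, had 2.10, 2.42 and 4.77 TPM in 3D and 39.6, 37.39 and 20.96 TPM in 2D. Its neighbour H19 had 1.54, 1.74 and 5.62 TPM in 3D and 21.6, 20.5 and 11.3 TPM in 2D. Grb10, an inhibitor of insulin signaling, had 55.6, 56.1 and 167.6 TPM in 3D and 573.3, 541.4 and 280.3 TPM in 2D (log2 fold change -2.44 ± 0.42, SE, adjusted p = 0.00125). Peg10 (-2.69), Peg3 (-2.07) and Plagl1 (-1.58) fell as well. In all 11 genes 3D replicate 3 was the highest 3D library, as it was in 862 of all 1096 genes called lower. Snrpn, Nnat and Rian had log2 fold changes of 0.16, 0.22 and -0.30. Averaging each close pair left 7 of the 11 calls. Genes expressed from the maternal allele (H19, Grb10, Igf2r) and from the paternal allele (Igf2, Peg10, Peg3) were both among those called.

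Of 12 core pluripotency factors none was called. Pou5f1 (Oct4) had 1874 ± 103 TPM in 3D and 1420 ± 81 TPM in 2D (SD, n = 3), a log2 fold change of 0.40 ± 0.09 (SE, adjusted p = 0.00658), and Nanog had 142 ± 14.7 and 104 ± 22.9 TPM (0.46). Sox2 had 50.7 ± 10.1 TPM in 3D and 84.1 ± 4.44 TPM in 2D (-0.74). Each of these lay under the fold change threshold. Of 17 formative and primed epiblast genes, Foxd3 was called higher (60.3, 58.7 and 38.3 TPM in 3D, 23.0, 20.1 and 20.5 TPM in 2D) and Sox4 lower (-1.11). Over all genes 0.687% were called higher and 8.76% lower. Sox4 lost its call with rescaled TPM, and Foxd3 with each close pair of replicates averaged (adjusted p = 0.0529). Fgf5 (-0.88) and Otx2 (-0.83) had adjusted p values of 0.00015 and 0.000349 and fold changes under the threshold. Dnmt3b, the de novo DNA methyltransferase of the primed state, had 960 ± 18.3 TPM in 3D and 918 ± 43.9 TPM in 2D (log2 fold change 0.07).

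Among naive pluripotency genes, 2 of the 6 tested were called higher, both of the Krüppel-like family, and 3 lower. Klf4 had 15.0, 13.8 and 20.6 TPM in 3D and 3.65, 3.495 and 3.476 TPM in 2D, and Klf2 had 8.61, 8.10 and 11.8 TPM in 3D and 2.05, 1.35 and 0.97 TPM in 2D. Their log2 fold changes were 1.92 ± 0.19 and 2.10 ± 0.23 (SE, adjusted p = 4.15e-05 and 8.29e-05). Klf5 of the same family fell (5.28, 5.01 and 8.17 TPM in 3D, 19.3, 19.3 and 23.5 TPM in 2D), as did Tet2 and Spp1. The other 12 naive genes of the list, among them Esrrb, Zfp42, Tfcp2l1, Prdm14 and Nr5a2, did not pass the filter, and none of these named ones exceeded 1.83 TPM on average in either culture. Klf4 is also an immediate early gene.

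Replicate 3 lay between its group and the 2D EpiSCs for part of the genes only. Of the 1096 genes called lower, 307 (28.0%) were more than 2-fold higher in replicate 3 than in both other 3D libraries, and 645 of all genes tested (5.16%) were. In the opposite direction 124 genes (0.991%) were more than 2-fold lower in replicate 3 than in both others, among them Tagln and S100a6. The genes with the largest excess in replicate 3 were, besides Cer1, Pga5, Dkk1, Lhx1, Spink1, Cyp26a1, Cxcr4, Cfap126, Rpl19-ps4 and Adm. Cfap126, Rpl19-ps4 and Adm, a vasodilator peptide gene induced by hypoxia, were not called. In each of them replicate 3 lay above every 2D library and not between the groups. Cfap126 had 13.9 TPM in replicate 3 and 6.25, 8.86 and 6.91 TPM in 2D, and Adm had 10.3 TPM and 5.88, 5.73 and 9.43 TPM. The marker sum of definitive endoderm, given above, was 169.6 TPM in this library and 37.97 and 38.05 TPM in the other 3D libraries. The part of such cells in the difference between replicates was not tested.

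**Figure D5:**
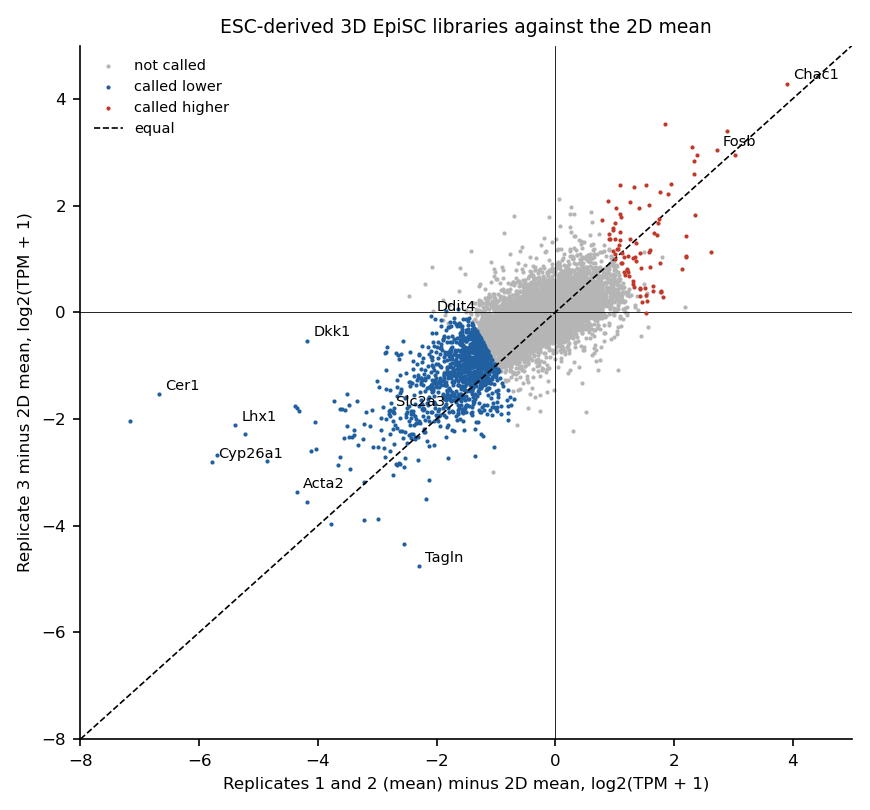
Each point is a gene tested, with the mean of 3D replicates 1 and 2 minus the 2D mean on the x axis and 3D replicate 3 minus the 2D mean on the y axis, both on the log2(TPM + 1) scale. Points above the dashed line of equality on the left side, such as Cer1, Lhx1 and Dkk1, were less reduced in replicate 3. Tagln lies below the line, and 307 of the 1096 genes called lower (blue) were more than 2-fold above both other 3D replicates in replicate 3.

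The 3D EpiSCs derived from embryos, grown in the same gel and medium, allow the same genes to be read side by side, and both comparisons share the 2D libraries. Chac1 had a mean of 111 TPM in the embryo-derived culture, Fos 284 TPM, Klf4 17.0 TPM and Slc2a3 174 TPM, and in the direct contrast of both 3D cultures the log2 differences (ESC-derived minus embryo-derived) were -0.50, 0.11, -0.02 and 0.02, with adjusted p of 0.488, 0.881, 0.945 and 0.972. Thbs1 and Acta2 had 3.78 and 0.94 TPM there. These means can hide spread, as Fos had 452.7, 199.1 and 201.1 TPM in embryo-derived replicates 1, 2 and 3, of which 2 and 3 were close. Over all genes tested 500 (4.0%) were called between the 3D cultures. Of the 18 endoderm genes 9 were, 7 of them lower in ESC-derived cells, such as Cer1, and 2 higher, Cldn4 and Trh. Cer1 had 56.7, 217.7 and 216.5 TPM in the embryo-derived libraries, a mean of 164 TPM. ESC-derived replicate 3, at 119.1 TPM, overlapped with them. Sox17, Cxcr4, Gata4, Dkk1, Krt19 and Sfrp5 were not called (adjusted p = 0.0562, 0.0745, 0.4, 0.279, 0.222 and 0.443). Of the 13 streak and mesoderm genes 10 were called, each lower in ESC-derived cells, among them Lhx1, with a mean of 43.8 TPM in embryo-derived cells, and Gsc, with 36.9 TPM and a log2 difference of -1.98 (adjusted p = 0.000963).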

How the data were processed

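Mouse bulk RNA-seq libraries made by poly-A capture with a stranded kit and 8 PCR cycles were used. The authors trimmed reads with cutadapt 2.4 (per the submitters' processing notes), mapped them with STAR (mm10) and quantified GENCODE VM19 genes with StringTie. The deposited values are TPM, relative to all transcripts of a library, which keep no depth, so no count-based interval is given. Lines of the same identifier (12) were summed, empty cells counted as 0, and biotypes came from GENCODE vM21. Autosomal genes were kept where 3 or more of the 6 libraries exceeded 2 TPM.

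Because no counts were used, limma 3.58.1 (R 4.3.3; lmFit, eBayes without trend) was run on log2(TPM + 1) in place of the study's count model, on 12 in vitro libraries of 4 groups, with Benjamini-Hochberg adjustment over the 12510 genes. The fit was tested on simulated data. Figures used Python 3.11.15 and matplotlib 3.10.9. The members, the 41 gene lists and the rule for naming genes were chosen with earlier results of these data known, and no list was tested as a set. Named were, for each direction, the 12 called genes of largest fold change with libraries apart, the 5 of largest difference in TPM, up to 5 called members a list, 30 fixed genes, and the 10 genes with the largest gap of 3D replicate 3. Other members of the lists named in the text were chosen after their values were seen. Alternatives were a pseudocount of 0.1, no filter, a filter over all 12 libraries, protein-coding genes, rescaled TPM, the 6 libraries alone, a replicate block, an intensity trend, averaging of close replicates and leaving out each replicate.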

Additional observations from a re-analysis of the deposited data

Results flagged for a closer look

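The direct contrast of the ESC-derived with the embryo-derived 3D EpiSCs, which equals the difference between their fold changes against 2D, separated 38 of the genes named by rule, leaving out those named only for the gap of replicate 3 (limma, adjusted p below 0.05 and absolute log2 difference above 1). The fold changes against 2D share the 2D libraries, whose means drop out of the direct contrast. Over all 12510 genes 500 (4.0%) were called in this contrast. It was read from the main fit only, so how far its calls depend on the processing was not tested. Of the 181 named genes 152 had been called against 2D, mostly lower, with the same ESC-derived libraries. Naming genes in this way favours negative differences here. Neither the count beside 4.0% nor the split of signs is therefore a result about these genes. The log2 differences below are ESC-derived minus embryo-derived.

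The difference was negative in 28 of the 38. Among endoderm, streak and pluripotency genes, Cer1 differed by -3.65 (adjusted p = 0.0409), Lhx1 by -3.10 (0.0111), Gata6 by -2.16 (0.0211), Mixl1 by -2.09 (0.00108) and Gsc by -1.98 (0.000963). Eomes differed by -1.07 (adjusted p = 0.0228), Sox2 by -1.03 (0.00436), Prdm1 by -1.003, Snai1 by -1.002 and Kit by -1.26. In the signaling lists, Cyp26a1 differed by -2.25 (adjusted p = 0.0303), Lgr5 by -1.89 (0.00144), Bmp7 by -1.84 (0.00135), Sp5 by -1.79 (5.38e-05) and Bmp2 by -1.71 (0.0281). Smaller differences there were those of Frzb (-1.34), Sfrp1 (-1.32), Lefty1 (-1.30), Tgfb1 (-1.11) and Fzd5 (-1.09). The others were Grb10 (-1.99) and Igf2 (-1.14) of the imprinted genes, Trp53inp1 (-1.22) and Cdkn1a (-1.12) of the p53 targets, and Frem2 (-1.53), Sema6d (-1.35), Cdh2 (-1.34) and Rgma (-1.21) of the matrix, adhesion and guidance genes.

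It was positive in the other 10. Nqo1 differed by 2.86 (adjusted p = 0.000197) and Cldn4 by 2.85 (1.67e-06), the largest of these, followed by Ctgf at 1.98 (0.000125), Gdf1 at 1.97 (0.000101) and Tagln at 1.77 (0.0408). H19 (1.40), Crabp2 (1.14), Twist1 (1.11), Exoc3l (1.09) and Srxn1 (1.09) were nearer to the threshold. Mixl1 had 3.16, 2.61 and 5.61 TPM in the ESC-derived libraries and a mean of 18.9 TPM in the embryo-derived libraries, and Ctgf had 35.8, 35.3 and 43.3 TPM against a mean of 8.92 TPM. Replicate 3 of the ESC-derived culture was the highest of its group for Cer1, Lhx1, Cyp26a1, Gata6, Grb10, Sp5, Cdh2 and Mixl1, and its part in these differences was not tested. In Cer1, Gata6, Prdm1, Bmp2, Frzb, Fzd5 and Sema6d this replicate lay above the lowest embryo-derived library.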

How the results depend on the processing

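The count of genes called higher was 86 and moved by over 1.5 times with rescaled TPM (194) and with each close pair of replicates averaged (50). Leaving out 1 library gave 65 to 152 higher and 904 to 1535 lower calls, the upper ends without 3D replicate 3. The lower calls were 759 with rescaled TPM and 812 with averaged pairs, against 1096. The other settings gave 64 to 116 higher and 1050 to 1388 lower calls. Of 152 named genes with a call, 108 kept it in every setting that gave a value and none changed direction. Most calls were lost with averaged pairs (32) and rescaled TPM (19), by construction with fewer libraries in the first. Deviations of same-numbered libraries from their group means correlated at -0.10, -0.03 and -0.12. Deviations within a group depend on each other, and no label ties the numbers to a batch. Whether same-numbered libraries share a batch could therefore not be decided. A fit that took the replicate number as a block gave 82 higher and 1090 lower, and 4 named genes lost their call. TPM give no depth, so the precision of low values is unknown.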

Other observations

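The following values concern genes outside the lists and were chosen after the values were seen. The primary transcripts of the miR-302/367 cluster, microRNAs typical of primed pluripotent cells, were lower in the ESC-derived 3D EpiSCs. The cluster lies on chromosome 3, plus strand. Of its mature microRNAs, those with the ending 3p in the reference used (RefSeq, GRCm38.p6) are printed. That reference held no mature miR-302a-3p. The seed, bases 2 to 8, is in capitals. The 302b and 302d seeds are the same, and that of 302c is offset by a base.
mmu-miR-302b-3p, chr3:127545275-127545297: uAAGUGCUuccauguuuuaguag
mmu-miR-302c-3p, chr3:127545406-127545427: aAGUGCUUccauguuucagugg
mmu-miR-302d-3p, chr3:127545665-127545687: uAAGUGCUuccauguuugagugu
mmu-miR-367-3p, chr3:127545779-127545800: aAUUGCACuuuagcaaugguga
The 5 hairpin entries passed the filter through the 2D libraries alone, so they could only come out lower. They summed to 1.12, 0.88 and 0.04 TPM in the ESC-derived 3D libraries and to 39.98, 36.17 and 27.41 TPM in the 2D libraries. The embryo-derived 3D libraries lay between, at 12.7, 5.10 and 3.01 TPM. Mir367 had 0.01, 0 and 0.04 TPM in 3D and 9.74, 8.50 and 7.12 TPM in 2D, a log2 fold change of -3.21. Larp7, the gene whose span holds the cluster, differed by 0.13 on the log2 scale (limma, adjusted p = 0.37). It lies on the minus strand, opposite to the hairpins, so its own transcript does not carry them. Poly-A libraries read the precursor transcript, and the mature microRNAs were not measured.

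Nnt, the nicotinamide nucleotide transhydrogenase of mitochondria, has 2 overlapping entries in the annotation, which were called in opposite directions. One had 15.7, 15.4 and 27.8 TPM in 3D and 2.20, 1.80 and 3.28 TPM in 2D, and the other 8.09, 8.19 and 2.67 TPM in 3D and 43.1, 42.7 and 35.8 TPM in 2D. Their sum was 23.8, 23.6 and 30.5 TPM in 3D and 45.3, 44.5 and 39.1 TPM in 2D. How reads were split between such entries is uncertain.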
